A study of Mus musculus with 6 samples.

Results

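The genes described here encode enzymes that cut the extracellular matrix, the plasminogen activator system that helps to switch them on, and the inhibitors that hold them back. They were taken by symbol, 9 genes of the 52550 in the deposited gene table: the metalloproteinases Mmp9, Mmp10, Mmp13 and Mmp14, the urokinase gene Plau and its receptor gene Plaur, the inhibitors Timp1 and Timp3, and the sheddase Adam17. All 9 were found, and all 9 passed the filter on low counts. RNA came from primary keratinocytes of wild-type C57BL/6 mice, prepared from the epidermis of pups 0 to 2 days after birth and kept in culture for 2 days. Cells of 3 libraries were left untreated, and those of the other 3 received recombinant IL-33, an alarmin related to IL-1, for 12 h. The labels used here give neither the dose nor the number of animals, pools or dishes behind a group's 3 libraries. The p-values therefore reflect the spread among libraries, and that spread may be technical.

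Matrix metalloproteinases are zinc enzymes made as inactive proenzymes, and other proteases remove the propeptide that blocks the active site. Plasmin is one such activator. It is cut from plasminogen by urokinase, which works at the cell surface when it is held by its receptor, the product of Plaur. Tissue inhibitors of metalloproteinases, the TIMPs, bind the active site, and TIMP-3 also inhibits ADAM17, the membrane protease that releases TNF and several ligands of the EGF receptor from the cell surface. In skin, keratinocytes at a wound edge are known for making several of these proteins as they migrate over the matrix.

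Mmp10 and Mmp13 lie in a cluster of matrix metalloproteinase genes on chromosome 9, and the bases just before their starts are shown because they hold the same pair of motifs, as do those of Mmp3, a neighbour in the cluster that is not among the 9 genes. Plaur is shown beside them because its window holds the first motif. Each run is the 150 bases before the RefSeq start of the gene, on the plus strand of GRCm38.p6, the build whose chromosomes are also called mm10. Capitals mark the AP-1 motif TGACTCA, on either strand (it reads TGAGTCA on the other), and the TATA box motif TATAAA.
Mmp10, chr9:7502192-7502341: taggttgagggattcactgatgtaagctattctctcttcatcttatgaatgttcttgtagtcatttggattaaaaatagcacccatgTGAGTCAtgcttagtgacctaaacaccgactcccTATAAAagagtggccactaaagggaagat
Mmp13, chr9:7272364-7272513: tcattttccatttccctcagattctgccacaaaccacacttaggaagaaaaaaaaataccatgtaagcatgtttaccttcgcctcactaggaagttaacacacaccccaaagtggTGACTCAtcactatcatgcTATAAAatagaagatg
Mmp3, chr9:7445672-7445821: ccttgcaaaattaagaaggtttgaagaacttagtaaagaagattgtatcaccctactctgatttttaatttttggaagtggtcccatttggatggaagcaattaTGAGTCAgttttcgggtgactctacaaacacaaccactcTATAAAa
Plaur, chr7:24462333-24462482: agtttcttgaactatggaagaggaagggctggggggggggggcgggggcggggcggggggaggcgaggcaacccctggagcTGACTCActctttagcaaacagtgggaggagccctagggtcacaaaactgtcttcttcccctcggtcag

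The AP-1 motif began 63 bases before the start of Mmp10, 35 before Mmp13, 46 before Mmp3 and 69 before Plaur. Windows of 300 bases, from 250 before to 50 after the start, were given for 7 of the 9 genes (not for Mmp9 and Plau). The AP-1 motif was found in 3 of these 7 windows and in 5.20% of all 32851 windows. The TATA box motif was in 2 of the 7, Mmp10 and Mmp13, and in 13.6% of all windows. The GC box motif GGGCGG, also searched on both strands, was in the other 5, those of Mmp14, Plaur, Timp1, Timp3 and Adam17, and in 35.7% of all windows. An NF-kB consensus was in none of the 7 and in 1.63% of all windows. Among the 10 genes of the chromosome 9 cluster, 7 windows held the AP-1 motif and 9 the TATA box motif. A match is a string of letters and not a measured binding site. The 519 tested genes with an AP-1 match had a median log2 fold change of -0.0027, beside 0.0065 for the 10823 tested genes that had a window.

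None of the 9 genes was called different between IL-33-treated and untreated keratinocytes, a call being a Benjamini-Hochberg adjusted p below 0.05 in the quasi-likelihood test of edgeR. That test called 0.0697% of all 15778 tested genes (11 genes). DESeq2, which called 0.439% of the genes it tested, called none of the 9, nor did limma-voom or limma on FPKM. An unadjusted p under 0.05 was reached by 2 of the 9, Mmp10 (higher with IL-33) and Plaur (lower), against 6.74% of all tested genes. In the same 2 genes the CPM values of the groups did not overlap, as was the case for 13.7% of all tested genes, 7.39% higher with IL-33 and 6.26% lower. CPM is a gene's deposited estimated count relative to the scaled total of its library. The median log2 fold change of the 9, IL-33 minus untreated, was 0.018, beside 0.0018 for all tested genes, with 5 genes above 0 and 4 below. The libraries held 34188173 to 45266298 deposited counts, IL-33 replicate 2 being the shallowest.

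**Figure D1:**
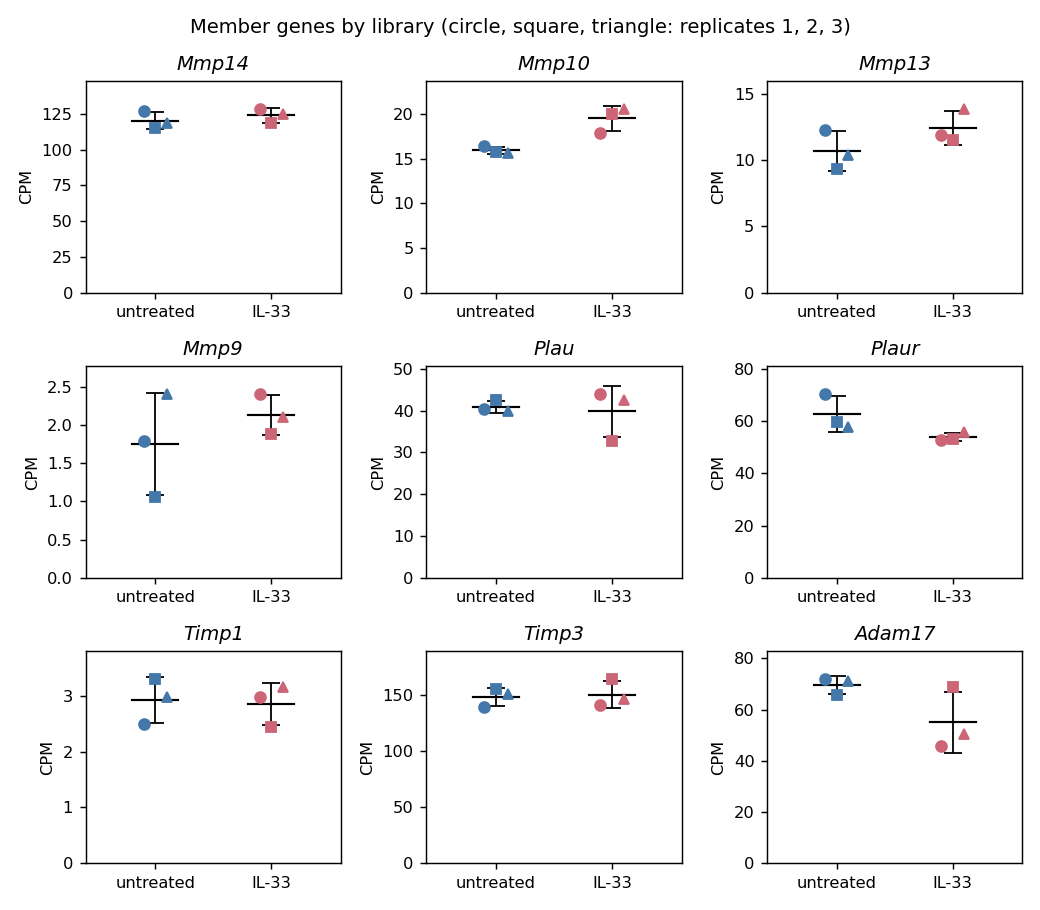
CPM of the 9 genes in each library, untreated in blue and IL-33 in red, with the mean and SD of each group as black bars and a vertical axis from 0 in each panel. The IL-33 values of Mmp10, at 17.9 to 20.6 CPM, all lie above the untreated ones, those of Plaur, at 52.8 to 55.7 CPM, all lie below, and the groups overlap in the other 7 panels.

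**Figure D2:**
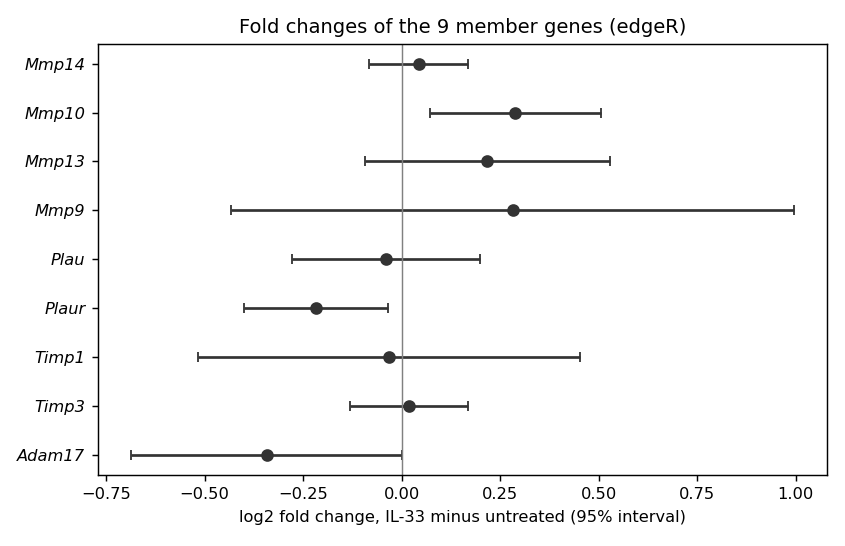
Log2 fold change of each gene, IL-33 minus untreated, as a point with its 95% interval from edgeR on the horizontal axis. The intervals of Mmp10 (0.07 to 0.51) and Plaur (-0.40 to -0.03) leave out 0 before adjustment for the number of genes tested, and that of Mmp9 is the widest, from -0.43 to 1.00.

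Levels of different genes are compared here per length, as the sum of the deposited FPKM of a gene's transcripts, averaged over all 6 libraries (FPKM is fragments per kilobase of transcript scaled to depth). Mmp14 was the most abundant of the 9 at 43.5 FPKM, followed by Plaur at 36.4 and Timp3 at 29.0. Plau stood at 15.5, Adam17 at 12.9 and Mmp10 at 9.25 FPKM, and the ranges over the libraries overlapped between Plau and Adam17 and between Adam17 and Mmp10. Mmp13 at 3.90 and Timp1 at 2.98 FPKM also overlapped in range, and Mmp9 was lowest at 0.628 FPKM. Between the other neighbours in this order the ranges did not overlap. The deposited gene FPKM gave Plaur as highest, at 20.01 FPKM against 18.7 for Mmp14, and Mmp10 above Adam17, at 9.25 against 7.82 FPKM. By that measure Timp3 (15.4 to 18.2 FPKM) and Plau (12.5 to 16.8 FPKM) also overlapped in range. Parts of the order thus depend on which of the authors' tables is read.

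Mmp10 (ENSMUSG00000047562.3, chromosome 9, 7502352 to 7510240 on GRCm38) encodes a stromelysin, an enzyme that cuts proteoglycans, laminin and fibronectin and that activates other metalloproteinases. Its CPM was 16.4, 15.8 and 15.7 in the untreated libraries and 17.9, 19.99 and 20.6 with IL-33. All 3 IL-33 libraries stood above all 3 untreated ones, by a small margin for IL-33 replicate 1. The means were 15.9 ± 0.396 and 19.5 ± 1.42 CPM (SD, n = 3 per group), a 1.22-fold difference with a 95% interval of 1.05 to 1.42. On the log2 scale this is 0.29 (SE 0.097), which did not pass (edgeR adjusted p = 0.71). Whichever library was left out, the log2 fold change lay between 0.25 and 0.35. A single annotated transcript held all counts of the gene.

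Mmp13 (ENSMUSG00000050578.10, chromosome 9, 7272514 to 7283331) encodes the main interstitial collagenase of rodents, which cuts fibrillar collagen. It stood at 12.3, 9.37 and 10.4 CPM untreated and at 11.9, 11.5 and 13.9 CPM with IL-33. The highest library was IL-33 replicate 3 and the lowest untreated replicate 2, and the groups overlapped through untreated replicate 1. On the log2 scale the difference was 0.22, with a 95% interval of -0.09 to 0.53 and an edgeR adjusted p of 0.808. Leaving out untreated replicate 2 or IL-33 replicate 3 gave 0.13 each, and leaving out untreated replicate 1 gave 0.32.

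The cluster that holds both genes spans 10 matrix metalloproteinase genes whose starts lie within 419.6 kb of that of Mmp13. Mmp3, the gene of another stromelysin, was the most abundant of them at 45.4 FPKM. Its CPM was 89.7, 82.4 and 86.4 untreated and 94.2, 101.9 and 90.4 with IL-33, so that the groups did not overlap (log2 fold change 0.15 with an SE of 0.064, edgeR adjusted p = 0.74). Mmp3 and Mmp10 are close relatives, and the sources used here do not say how reads that match both were counted. Mmp1b and Mmp12 were near the limit of detection, at 0.916 and 0.613 CPM untreated, and had log2 fold changes of -0.58 and -0.26 with edgeR adjusted p of 0.824 and 0.955. All IL-33 values of Mmp1b lay below the untreated ones, and those of Mmp12 overlapped. The other 5 genes of the cluster were not tested: Mmp1a, Mmp7 and Mmp20 had 0 counts in all libraries, and Mmp8 and Mmp27 stayed below 12 deposited counts, or about 3 fragments, in each. A count of 0 allows up to 3 fragments, which is 0.265 to 0.351 CPM in these libraries.

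**Figure D3:**
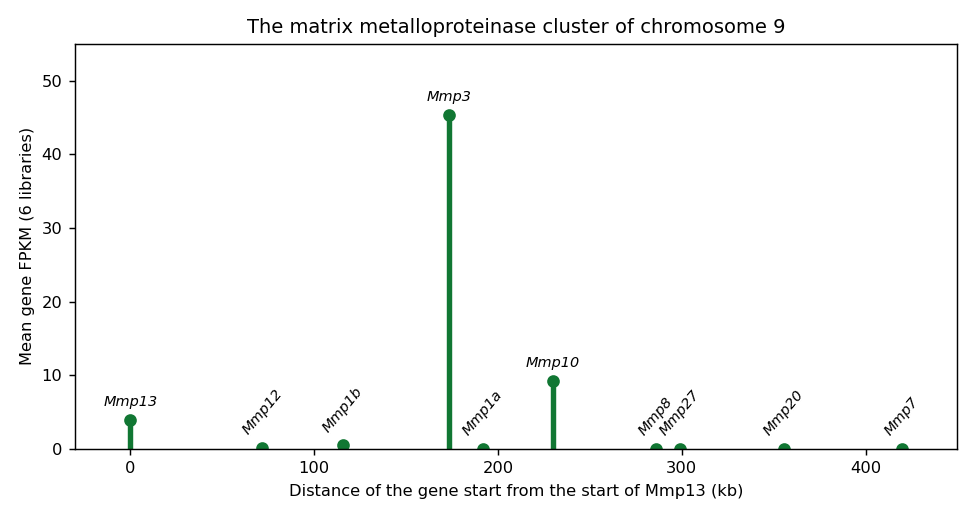
Mean deposited gene FPKM over 6 libraries for the 10 metalloproteinase genes of the chromosome 9 cluster, plotted by the distance of each gene's start from that of Mmp13 in kb. Mmp3 (45.4 FPKM), Mmp10 (9.25 FPKM) and Mmp13 (3.90 FPKM) stand above the 7 other genes, each at 0.464 FPKM or less.

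Mmp14 (ENSMUSG00000000957.10, chromosome 14, 54431612 to 54445364) encodes a membrane-anchored metalloproteinase that cuts collagen around the cell and activates the proenzyme of MMP-2. It stood at 127, 115 and 118 CPM untreated and at 129, 119 and 125 CPM with IL-33. Each group's lowest library was its replicate 2, and the ranges lay almost on top of each other. Its log2 fold change was 0.04 with a 95% interval of -0.08 to 0.17 (edgeR adjusted p = 0.914), so a difference larger than 1.12-fold up lies outside the interval. The coding transcript ENSMUST00000089688.5 held 98.6% of the gene's counts. Mmp2, the gene of the enzyme it activates, stood at 7.77 ± 2.25 and 7.19 ± 1.88 CPM (SD, n = 3 in each group, with an edgeR adjusted p of 0.956).

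Mmp9 (ENSMUSG00000017737.2, chromosome 2, 164940780 to 164955850) encodes a gelatinase that cuts denatured collagen and basement membrane collagen. It was near the limit of what these libraries can show, with about 20, 11 and 27 fragments untreated and 26, 16 and 23 with IL-33, on a scale of 4 deposited counts to a fragment. As CPM these are 1.79, 1.06 and 2.41 against 2.41, 1.88 and 2.11. The groups overlapped, and untreated replicates 2 and 3 were the lowest of all and level with the highest. A log2 fold change of 0.28 had an SE of 0.32 (edgeR adjusted p = 0.90). It was 0.02 without untreated replicate 2 and 0.58 without untreated replicate 3. The interval runs from a 0.741-fold to a 2.00-fold level, so differences inside it were not resolved by these libraries. Neutrophils are a known source of this enzyme, and of 6 neutrophil markers 5 (Ly6g, Mpo, Elane, Csf3r and Cxcr2) had 0 counts in every library. Ngp had 4 deposited counts in IL-33 replicate 3 (0.0906 CPM) and 0 elsewhere.

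Plau (ENSMUSG00000021822.3, chromosome 14, 20836660 to 20843385) encodes urokinase. Its CPM was 40.4, 42.6 and 39.9 untreated and 44.0, 32.8 and 42.6 with IL-33. IL-33 replicate 2 was the lowest library, and the other 2 IL-33 libraries were at or above the untreated ones. On the log2 scale the difference was -0.04, with a 95% interval of -0.28 to 0.20 and an edgeR adjusted p of 0.965, and without IL-33 replicate 2 it was 0.08. All counts were assigned to a single coding transcript of the 2 in the table.

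Plaur (ENSMUSG00000046223.10, chromosome 7, 24462484 to 24475968) encodes the urokinase receptor, which is tethered to the membrane by a lipid anchor. Its CPM was 70.4, 59.8 and 57.8 untreated and 52.8, 53.1 and 55.7 with IL-33. All 3 IL-33 libraries stood below all 3 untreated ones, and untreated replicate 1 was far above the other 5. As summed transcript FPKM the groups overlapped, at 41.0, 36.6 and 36.97 untreated and 33.2, 33.6 and 36.96 with IL-33, where IL-33 replicate 3 lay above untreated replicate 2. The means were 62.7 ± 6.77 and 53.9 ± 1.602 CPM (SD, n = 3 per group), a level 14.0% lower with IL-33. The log2 fold change was -0.22 with an SE of 0.082, which did not pass (edgeR adjusted p = 0.74). Without untreated replicate 1 it was -0.13 (edgeR adjusted p = 0.958), and without each other library it lay between -0.27 and -0.21.

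The counts of Plaur were divided among 6 transcripts. The coding transcript ENSMUST00000002284.10 held 78.8% of them over all libraries, with a log2 fold change of -0.14 whose 95% interval ran from -0.38 to 0.09 (edgeR adjusted p = 1.00). Its deposited FPKM was 30.1, 27.4 and 29.2 untreated and 23.7, 29.0 and 26.1 with IL-33, and the groups overlapped through IL-33 replicate 2. The retained-intron transcript ENSMUST00000206636.1 shares 1490 of the 1506 exon bases of the coding transcript, and its counts ranged from 8 in IL-33 replicate 2 to 752 in untreated replicate 1. The high total of untreated replicate 1 thus came with the highest count of this transcript, which was 440 and 35 in the other untreated libraries and 411 and 214 in the other IL-33 libraries. Another transcript, ENSMUST00000206514.1, annotated as a target of nonsense-mediated decay, had 235 counts in untreated replicate 3 and 0 elsewhere. These were 8.97% of the gene's counts in that library, whose gene CPM of 57.8 was the untreated value nearest to those with IL-33. How far the separation of the groups in gene CPM rests on such assignments was not tested.

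Timp1 (ENSMUSG00000001131.11, chromosome X, 20870166 to 20874735) encodes a soluble inhibitor of many metalloproteinases. It was low in both groups, at 2.50, 3.31 and 2.98 CPM untreated and 2.98, 2.44 and 3.17 CPM with IL-33, from about 21 to 35 fragments in a library. The groups covered the same range. The log2 fold change was -0.03, with an interval wide enough, from -0.52 to 0.45, that a difference of 1.37-fold up or 0.70-fold down lies at its edges (edgeR adjusted p = 0.985). The gene lies inside Syn1 on the opposite strand, but they share 0 exon bases and Syn1 had at most 0.205 CPM.

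Timp3 (ENSMUSG00000020044.13, chromosome 10, 86300372 to 86349506) encodes the TIMP that binds to the matrix. It was much more abundant, at 139, 155 and 151 CPM untreated and 141, 164 and 146 CPM with IL-33. The highest library was IL-33 replicate 2 and the lowest untreated replicate 1, and the groups overlapped. The log2 fold change was 0.02 with a 95% interval of -0.13 to 0.17 (edgeR adjusted p = 0.973), and it turned to -0.05 with IL-33 replicate 2 left out and to -0.03 with untreated replicate 1 left out. Syn3 overlaps Timp3 on the opposite strand and shares 1733 of the 8144 exon bases of Timp3. The sources used here do not say whether the counting used strand, so reads of the 2 genes may not be fully separated. Syn3 stood at 45.5 ± 0.692 and 48.0 ± 3.42 CPM (SD, n = 3 in each group, with an edgeR adjusted p of 0.879).

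Adam17 (ENSMUSG00000052593.15, chromosome 12, 21323509 to 21373632) had the largest difference of the 9 genes in size. It measured 72.0, 65.7 and 71.2 CPM untreated and 45.8, 68.6 and 50.4 CPM with IL-33. IL-33 replicates 1 and 3 were the lowest of the 6 libraries, while IL-33 replicate 2 lay within the untreated range, so the groups overlapped. The means were 69.6 ± 3.41 and 54.9 ± 12.1 CPM (SD, n = 3 per group). The log2 fold change was -0.34 with an SE of 0.15 and a 95% interval of -0.69 to 0.0012, and it did not pass (edgeR adjusted p = 0.744). Without IL-33 replicate 2 it was -0.53 (edgeR adjusted p = 0.0961), and without IL-33 replicate 1 it was -0.23 (edgeR adjusted p = 0.85).

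Nearly all Adam17 counts were split between 2 transcripts that share 4404 exon bases. ENSMUST00000064536.12 is annotated as coding, with 39 bases of its own, and ENSMUST00000127974.7 as a target of nonsense-mediated decay, with 19 bases of its own. The coding transcript was assigned 36.2%, 91.8% and 21.7% of the gene's counts in the untreated libraries and 31.1%, 14.8% and 47.9% with IL-33. Both the highest and one of the lowest shares fell in the untreated group, and neither transcript passed (log2 fold changes -1.07 and 0.09, edgeR adjusted p = 1.00 each). The gene totals, by contrast, stayed within 65.7 to 72.0 CPM in the untreated libraries. At its 3' end Adam17 shares 311 of 7154 exon bases with Iah1 on the opposite strand, and Iah1 stood at 17.2 ± 2.90 and 17.4 ± 1.07 CPM (SD, n = 3 in each group, with an edgeR adjusted p of 0.992). Over all 9 genes, 21 of 34 listed transcripts were tested. None passed at an adjusted p under 0.05 in edgeR or DESeq2 (0.0299% of all tested transcripts in edgeR), and 0 had an unadjusted p under 0.05 in edgeR (4.24% of all tested transcripts).

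**Figure D4:**
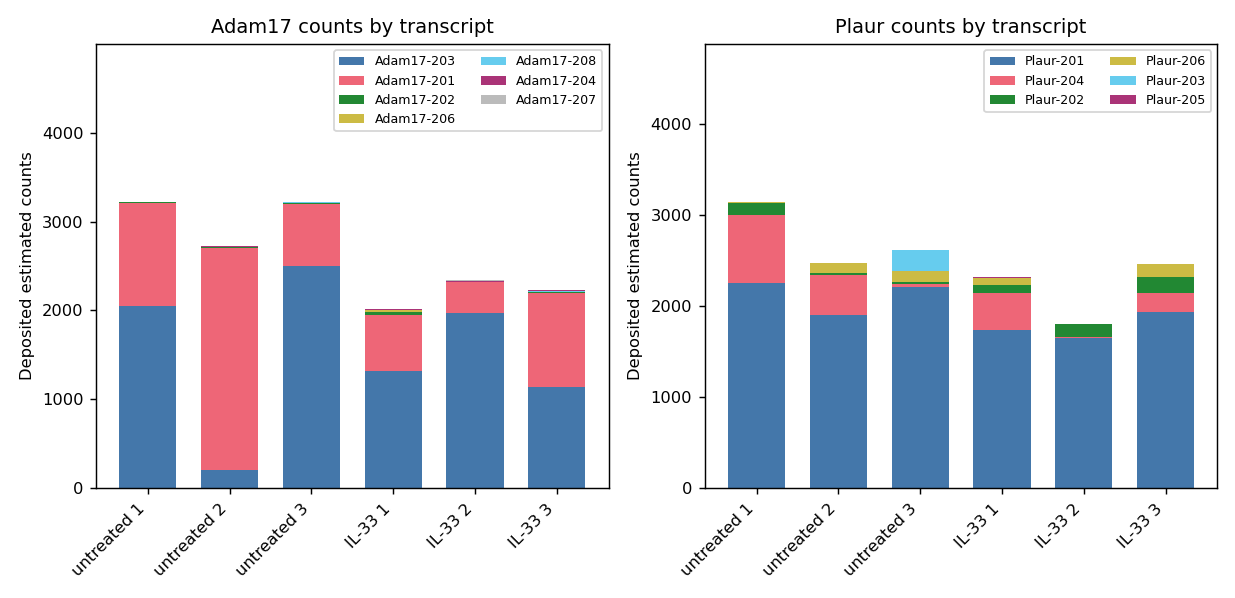
Deposited estimated counts of Adam17 (left) and Plaur (right) in each library, stacked by the annotated transcript to which they were assigned. The coding Adam17-201 takes 91.8% of the counts in untreated replicate 2 and 14.8% in IL-33 replicate 2, and the retained-intron Plaur-204 ranges from 8 to 752 counts.

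Around these 9 genes, 90 further genes in 5 lists of the same system were read, of which 72 were tested and none was called by edgeR. An unadjusted p under 0.05 was reached by 5 of the 72, 3 higher with IL-33 (3.42% of all tested genes) and 2 lower (3.31%). The CPM values of the groups did not overlap in 5 that were higher with IL-33 (7.39% of all tested genes) and 7 that were lower (6.26%). Of 19 other matrix metalloproteinases 12 were tested, 7 above 0 and 5 below, with a median log2 fold change of 0.11. The largest of the differences with an unadjusted p under 0.05 was in Mmp28, an epidermal metalloproteinase, at 3.26 ± 0.367 and 4.64 ± 0.738 CPM (SD, n = 3 per group; log2 fold change 0.51, edgeR adjusted p = 0.74). Mmp24 had 13.3 ± 1.01 CPM untreated and 10.8 ± 2.39 CPM in treated cells, and Mmp17 had 2.79 ± 0.242 and 2.02 ± 0.818 CPM, with edgeR adjusted p of 0.763 and 0.809.

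Of 15 other genes of the plasminogen system 11 were tested, with 5 above 0, 6 below and a median of -0.0050. Plg, the gene of plasminogen itself, named here after its values had been seen, had 0 counts in all 6 libraries. Serpinb2, an inhibitor of urokinase, stood at 350.2 ± 32.4 CPM in untreated cells and 299 ± 23.7 CPM in treated ones, and the groups overlapped (log2 fold change -0.23, edgeR adjusted p = 0.74). Itgb1, the integrin beta chain that associates with the urokinase receptor, stood at 602 ± 6.48 and 567 ± 15.0 CPM, with all IL-33 libraries below the untreated ones (log2 fold change -0.09, edgeR adjusted p = 0.74). Serpine2, an inhibitor of serine proteases, stood at 73.5 ± 3.70 and 80.3 ± 6.54 CPM, and Lrp1, a receptor that clears protease and inhibitor complexes, at 26.7 ± 1.38 and 28.6 ± 2.20 CPM (edgeR adjusted p of 0.777 and 0.877). S100a10 and Anxa2, which form a plasminogen-binding complex at the cell surface, were the most abundant genes of the list by gene FPKM, at 1065 and 835 FPKM, with log2 fold changes of -0.01 and -0.0050.

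Of 8 other metalloproteinase inhibitors and related genes 5 were tested, 2 above 0 and 3 below, and 0 had an unadjusted p under 0.05. Timp2, the inhibitor that also takes part in the activation of MMP-2, stood at 53.4 ± 4.65 and 50.9 ± 4.01 CPM (SD, n = 3 in each group, with an edgeR adjusted p of 0.912). Pcolce, an enhancer of procollagen processing, stood at 2.49 ± 0.714 and 1.70 ± 0.226 CPM, and Reck, a membrane-anchored inhibitor, at 1.10 ± 0.516 and 1.46 ± 0.692 CPM, with edgeR adjusted p of 0.763 and 0.904. The proteoglycan genes Spock2 and Spock1 stood at 2.35 ± 0.633 and 2.14 ± 0.866 CPM and at 0.156 ± 0.183 and 0.419 ± 0.218 CPM, with edgeR adjusted p of 0.964 and 0.817.

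Of 20 other ADAM and ADAMTS proteases and partners of ADAM17, 19 were tested, 15 above 0 and 4 below, with a median log2 fold change of 0.10. Of all 15778 tested genes 7967 were above 0, and several of the 15 were near the limit of detection. The iRhom genes Rhbdf1 and Rhbdf2, whose products carry ADAM17 to the cell surface, stood at 68.7 ± 6.14 and 65.01 ± 5.97 CPM and at 52.0 ± 0.747 and 52.1 ± 3.11 CPM (SD, n = 3 in each group, with an edgeR adjusted p of 0.898 and 0.993). Both are named for their role, after their values had been seen. Frmd8, which stabilises the iRhom and ADAM17 complex, stood at 112 ± 1.92 and 122 ± 2.32 CPM, with all IL-33 libraries above the untreated ones (log2 fold change 0.13, edgeR adjusted p = 0.74). Adam8, Adamts1 and Adam9 were the most abundant by gene FPKM, at 46.5, 23.4 and 22.0 FPKM, with log2 fold changes of 0.0014, 0.0028 and -0.10. Adamts9 and Adamts17, which cut matrix proteins, had log2 fold changes of 0.28 and 0.45 and groups that did not overlap, with an edgeR adjusted p of 0.777 each.

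Of 28 activating and pericellular serine and cysteine proteases and their inhibitors 25 were tested, 13 above 0 and 12 below, with a median of 0.0066, and 0 had an unadjusted p under 0.05. The groups did not overlap in 4 of them, all lower with IL-33: St14, Klk6, Klk8 and Ctsk (6.26% of all tested genes were lower in this way). St14, the gene of the epidermal protease matriptase, stood at 205 ± 7.13 and 193 ± 3.22 CPM (SD, n = 3 in each group, with an edgeR adjusted p of 0.763). The kallikrein gene Klk6 stood at 2.28 ± 0.238 and 1.65 ± 0.155 CPM, and Ctsk, the gene of cathepsin K, at 2.15 ± 0.304 and 1.57 ± 0.348 CPM (edgeR adjusted p of 0.763 and 0.80). Klk8 had 17.9 ± 0.902 CPM untreated against 16.4 ± 0.669 (edgeR adjusted p = 0.832), and it is named here because of its values. Pcsk6, a proprotein convertase, stood at 4.36 ± 0.442 and 5.30 ± 1.03 CPM (edgeR adjusted p = 0.814). Htra1, Ctsd and Bsg, which encode a secreted serine protease, cathepsin D and an inducer of metalloproteinases, were the most abundant by gene FPKM, at 253, 221 and 129 FPKM, with log2 fold changes of -0.04, 0.04 and 0.02.

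**Figure D5:**
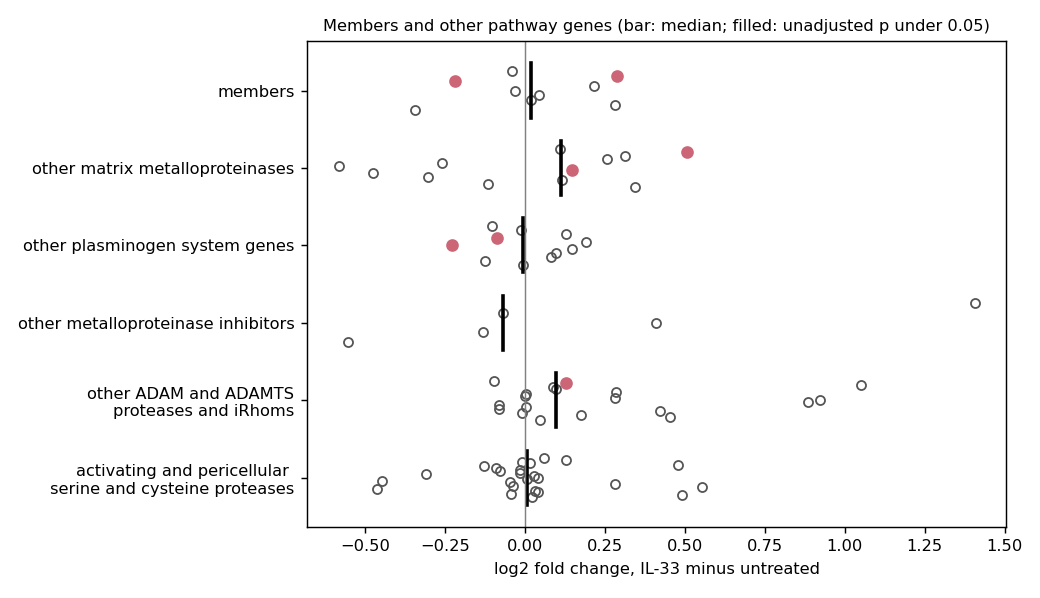
Log2 fold change, IL-33 minus untreated, of each tested gene of the 9 members and the 5 other lists (rows), with the median of each list as a black bar and genes at an unadjusted p under 0.05 filled in red. Filled points lie on both sides of 0: 1 higher and 1 lower among the members, and 3 higher and 2 lower among the other 72 genes.

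The 7 basal keratinocyte markers, not all of them keratins, summed to 35203 to 36290.3 CPM untreated and 35346 to 37969 CPM with IL-33. Krt5 contributed most to this sum, with a mean of 18034 CPM untreated and 18995 CPM after IL-33. Krt14 came next, its means being 14350 CPM untreated and 14645 CPM after IL-33. The basal keratin gene Krt15 was low, averaging 1.06 CPM untreated and 0.999 CPM after IL-33. The 7 suprabasal markers summed to 18.0 to 18.9 CPM untreated and 16.1 to 19.4 CPM with IL-33. Of the basal markers 2 were above 0 and 5 below. Itgb4 was lower in all IL-33 libraries (log2 fold change -0.23, edgeR adjusted p = 0.575). Krt5 was higher in all IL-33 libraries (log2 fold change 0.07, edgeR adjusted p = 0.75). Of the suprabasal markers 3 were above 0 and 4 below, with Krt1 at 0.94 and Ivl at -0.49 (edgeR adjusted p = 0.74 each). Itgb4, Krt1 and Ivl had an unadjusted p under 0.05. Markers of other cell types, several of which are not specific to them, were read as well. The 9 fibroblast markers summed to 165 to 204 CPM untreated and 167 to 205 CPM with IL-33, most of it from Vim, at 114 CPM in each group, and Fbln1, at 40.3 and 38.7 CPM. Col1a1 was lower with IL-33, at 7.70 ± 4.31 against 3.38 ± 0.887 CPM (SD, n = 3 in each group, with an edgeR adjusted p of 0.74 and an unadjusted p under 0.05). Untreated replicate 1 stood far above the rest, with 12.6, 4.74 and 5.72 CPM untreated and 4.14, 2.41 and 3.60 CPM with IL-33. Of the 8 tested fibroblast markers 4 were above 0 and 4 below. The 6 melanocyte markers summed to 1111 to 1163 and 1112 to 1206 CPM, the 8 macrophage markers, of which C1qa was at 0 and Ptprc and C1qb under 12 counts in every library, to 34.1 to 39.4 and 38.1 to 42.1 CPM, mostly from Cd68 and Csf1r, and the 5 endothelial markers, of which Emcn was at 0 and Cdh5 under 12 counts, to 13.5 to 19.8 and 16.3 to 17.1 CPM, mostly from Kdr. All 4 tested macrophage markers were above 0, with a median log2 fold change of 0.12, as were 4 of 6 melanocyte and 2 of 3 endothelial markers. Among the macrophage markers, Lyz2 (log2 fold change 1.98, edgeR adjusted p = 0.825) stood at 2.94 CPM in IL-33 replicate 3. It was at 0.760, 0.193 and 0 CPM untreated and at 0.364 and 0.470 CPM in IL-33 replicates 1 and 2. Adgre1, which was not tested, had 0.362 CPM in IL-33 replicate 3, 0.147 CPM in IL-33 replicate 2 and 0 elsewhere. The few counts of Ptprc and C1qb, 7 and 9, were all in IL-33 replicate 3. Cd68 was highest in untreated replicate 3. Of 6 mast cell markers 4 were at 0 in all libraries, and nearly all of the sum of 17.1 to 20.5 and 15.6 to 19.5 CPM came from Kit, which melanocytes also express. The part of other cell types or of keratinocyte state in the levels above was not tested, and in such bulk RNA fewer cells of a type and less RNA per cell cannot be told apart.

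The gene whose log2 CPM followed each of the 9 most closely over the 6 libraries was also looked up among 12012 others, as a description. Nifk was nearest to Plaur and Irx4 to Mmp10, with Pearson correlations of 0.997 and 0.993, and Fopnl was nearest to Adam17 at 0.992. Slc4a4 was nearest to Mmp13, Ncbp3 to Mmp9, Mrs2 to Mmp14, Dab2 to Plau, Cachd1 to Timp1 and Actr5 to Timp3. Over so few libraries such values are common: between 65 and 127 genes had a correlation above 0.9 with each of the 9. All points share their libraries and scaling.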

How the data were processed

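RNA-seq of mouse keratinocytes was read from tables of the whole series. Build mm10 and the tools StringTie 1.3.4d, HISAT2 2.1.0, DESeq2 1.18.1 and FastQC 0.11.7 were used, per the submitters' processing notes, which give no roles. The deposited estimated counts are whole numbers for genes and transcripts. Unrounded counts were worked back from transcript FPKM, exon length and a scale factor for each library. Transcripts with low values pile up near 4 and 8 (in untreated replicate 1, 1382 near 4 and 790 near 8 against 318 near 5), but also near 2 (771). Taking 4 counts as about 1 fragment is an inference from these values. Counts were also tested divided by 4. The deposited FPKM values are per kilobase and scaled to depth, per the file headers. Gene FPKM is not the sum over transcripts.

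Of 52550 gene identifiers 52403 had a symbol. Positions, and gene and transcript types, are those of GENCODE M21 (GRCm38). Promoter sequences are from RefSeq (GRCm38.p6).

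The main test was edgeR 4.0.16 (R 4.3.3, quasi-likelihood, TMM, robust, filterByExpr with minimum count 10) on all 15778 genes that passed, with Benjamini-Hochberg adjustment and a threshold of 0.05, IL-33 minus untreated. The same test was run on 40163 transcripts. Alternatives were other scalings and filters, DESeq2 1.42.0, limma 3.58.1 (voom, and log2(FPKM + 0.1) and log2(FPKM + 1), genes at a mean FPKM of at least 0.1), the replicate number as a block, and each library left out. The fits were tested on simulated data. At 4 counts to a fragment, none of the 6 pairs of libraries within a group agreed within sampling noise (median chi-square 1.89 to 2.50 times its sampling value). That ratio depends on the inferred number of counts per fragment. Intervals are at 95%. Limits from counts of 0 cover counting error only.

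Members and lists were chosen with earlier results of these data known. The text names the 9 members, the 4 genes of each other list with the smallest unadjusted p and the 3 with the highest gene FPKM, and for each member its nearest gene by correlation at a mean log2 CPM of at least 1. Other names are said to have been chosen after their values were seen, apart from genes of the chromosome 9 cluster, overlapping genes and cell type markers.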

Additional observations from a re-analysis of the deposited data

How the results depend on the processing

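None of the 9 genes was called under any of the 19 alternatives run, and none of their transcripts under the 9 run on transcripts. Mmp9, Mmp10, Mmp13, Mmp14, Plaur and Adam17 kept their direction in all 19. The log2 fold change of the other 3 turned sign when 1 library was left out. That of Plau ranged from -0.12 to 0.080, the only positive value being the one without IL-33 replicate 2. That of Timp1 ranged from -0.14 to 0.069, the highest without IL-33 replicate 2, and it was 0.059 with untreated replicate 2 left out. That of Timp3 ranged from -0.051 (IL-33 replicate 2 left out) to 0.062, and it was -0.031 with untreated replicate 1 left out. The lowest adjusted p of a member in any alternative was 0.0961, for Adam17 without IL-33 replicate 2. The number of members at an unadjusted p under 0.05 was 1 to 3 over the alternatives. Over all genes, 11 were called in the main test, 71 by DESeq2, 31 by DESeq2 on counts divided by 4 (added after the data were seen), 17 without a filter on low counts, 4 by limma on log2(FPKM + 0.1) with or without a filter and on log2(FPKM + 1), and 11 to 90 with a library left out, the highest without IL-33 replicate 3; the cause was not tested. With the replicate number as a block 8 genes were called, and no member. Same-numbered libraries did not deviate together (correlations of 0.03, -0.0045 and -0.02), and not every library correlated best with its own number. The labels do not say whether a number marks a shared animal or day, and so few libraries cannot decide it. Mmp9 and Timp1 rest on the fewest fragments of the 9, about 124 and 184 over all 6 libraries.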
